A study of Homo sapiens with 9 samples.

Results

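Aminoacyl-tRNA synthetases join each amino acid to its transfer RNA, the step that fixes the genetic code in protein synthesis. Human cells use separate genes for most enzymes of the cytosol and of mitochondria, while the glycine and lysine enzymes of both compartments come from GARS1 and KARS1. Several cytosolic enzymes are held together in a multisynthetase complex, and all of these genes are transcribed in the nucleus and have their introns removed by the spliceosome, apart from MARS2, which has no intron. SF3B1 belongs to the U2 particle of the spliceosome, which pairs with the branch point of an intron a short way before its 3′ end.

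The genes described here were a list of 35 aminoacyl-tRNA synthetases, chosen by function: 17 of the cytosol, 16 of mitochondria and 2 serving both. A binding site was counted when its centre lay inside the RefSeq span of one of these genes on the strand of that gene. This gave 1075 of the 96852 SF3B1 sites listed, or 1.11%, in 29 of the 35 genes. The list makes up 0.175% of the 20050 protein-coding genes.

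The sites came from iCLIP, in which ultraviolet light ties a protein to the RNA it touches and the crosslinked nucleotide is read by sequencing after immunoprecipitation. The cells were K562, a leukaemia cell line, all crosslinked with 400 mJ/cm2 at 254 nm and carrying no other treatment. In 3 libraries SF3B1 was precipitated from K562 cells of genotype SF3B1 wt/wt, replicates 2, 3 and 4, with 10 µg of a monoclonal antibody, and 1 merged site list belongs to them. The other libraries, 2 of SF3B1 from K700E/wt cells and 4 of U2AF2 from wt/wt cells, were not analysed here. The header of the list says that its 5 nt sites recurred in every replicate of one condition or the other, so a site cannot be assigned to a replicate or, with certainty, to a genotype.

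Read numbers and replicate values were absent from the list, so the depth is unknown and a count has no spread between cultures beside it. Counts and medians were therefore compared without a test, and enzymes are not replicates of their class. Transcript abundance was not measured; few transcripts and few contacts per transcript cannot be told apart, and the part of transcript abundance in any difference below was not tested. The labels describe the source as lymphoid, whereas K562 is known as a line of chronic myeloid leukaemia with erythroid features. Of 5 K562 marker genes counted, 3 held sites, with 121 in TFRC, 17 in TAL1 and 6 in GATA1, while KLF1 and HBG1 had 0. The lymphoid markers CD79A, PAX5 and CD3E had 0 sites.

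MicroRNA hairpins annotated inside MARS1 and TARS2 each held a pair of sites, so the RNA under a closely spaced pair can be shown for these genes. Capitals mark the 5 nt of each site, and the sequences are RefSeq's for GRCh38.p14. MIR6758 lies inside MARS1, the cytosolic methionine enzyme gene, on the plus strand at chr12:57512688-57512750. MIR6878 lies inside TARS2, the mitochondrial threonine enzyme gene, on the plus strand at chr1:150492345-150492410.
MIR6758 in MARS1: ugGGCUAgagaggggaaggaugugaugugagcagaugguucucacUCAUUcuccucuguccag
MIR6878 in TARS2: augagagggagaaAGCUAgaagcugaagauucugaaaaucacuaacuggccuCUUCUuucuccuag

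The 2 sites of the MARS1 hairpin were centred on bases 5 and 48 of 63, 43 nt apart, and those of the TARS2 hairpin on bases 16 and 55 of 66, 39 nt apart. Both hairpins ended in AG, the last bases of most introns, at 15 and 11 bases after the centre of the downstream site. In MARS1 the letters TNCTNAC, a loose form of the mammalian branch point consensus, began at base 39, between the sites. A run of 8 or more pyrimidines began at base 49 there and at base 50 in the TARS2 hairpin, and such runs were present in 35.1% of 1562 RefSeq hairpins on the RNA strand and in 48.3% on either strand. TNCTNAC was absent from the TARS2 hairpin, but the shorter CTNAC, which TNCTNAC contains and which was chosen after the sequences were seen, began at base 42 there, again between the sites. Both motifs were searched on the RNA strand: TNCTNAC was present in 7.43% of these hairpins and CTNAC in 25.2%, or in 13.8% and 43.2% when either strand was allowed. Sites on the annotated strand were found in 35 of these hairpins, 2.24%, and 13 held exactly 2.

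Another hairpin of similar size, MIR6890 in QARS1 at chr3:49099854-49099914 on the minus strand, held 0 sites, neither motif and no such run. MIR6890 also ended in AG, so this ending was not particular to the hairpins with sites. The share of all hairpins that end in AG was not counted. MIR3651 in IARS1, at chr9:92292458-92292547 on the minus strand, held 0 sites and neither motif, but it had a run of 8 or more pyrimidines from base 46. Both are shown for comparison. QARS1 and IARS1 encode the cytosolic glutamine and isoleucine enzymes.
MIR6890 in QARS1: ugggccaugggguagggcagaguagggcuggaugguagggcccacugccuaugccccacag
MIR3651 in IARS1: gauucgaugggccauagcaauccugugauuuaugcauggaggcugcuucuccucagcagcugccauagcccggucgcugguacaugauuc

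The 4 other synthetase sites with sequence fell inside a RefSeq promoter window, which gave the sequence around them on the strand of the synthetase gene. They are shown because their bases could be read, at chr6:44306872-44306932 in AARS2, chr11:3040989-3041049 in CARS1, chr19:12930508-12930568 in FARSA and chr16:75647537-75647561 in KARS1, all on the minus strand.
AARS2: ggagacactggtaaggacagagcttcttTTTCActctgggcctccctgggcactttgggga
CARS1: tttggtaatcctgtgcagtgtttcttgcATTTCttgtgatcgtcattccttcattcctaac
FARSA: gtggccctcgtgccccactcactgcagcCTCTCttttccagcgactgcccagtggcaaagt
KARS1: gtctttaaagCCTTTgcggtaggag

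The central base was T in AARS2, CARS1 and KARS1 and C in FARSA. In the hairpins above, the sites were centred on C and A in MARS1 and on C and U in TARS2. Among all 358 listed sites with 61 bases of sequence in such windows, T was the central base in 74.6%, against 20.8% at the middle of 35116 promoter windows. A run of 8 or more pyrimidines reached the site in FARSA and in AARS2, beginning at bases 28 and 23 of 61, where the site was centred on base 31. Such a run was present in 53.4% of the windows around listed sites and in 24.7% of the promoter windows of the same length. In CARS1, TNCTNAC began at base 55, downstream of the site. It was present in 8.94% of windows around sites and 3.95% of promoter windows on the given strand, or 13.97% and 8.11% on either strand. CTNAC alone began at base 18 in FARSA, upstream of the site, and was present in 25.7% and 15.1% of these windows on the given strand, or 38.0% and 28.8% on either.

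Cytosolic synthetase genes held most of the sites. All 17 cytosolic genes had sites, from 5 to 183 with a median of 49, whereas 10 of the 16 mitochondrial genes had sites, from 0 to 27 with a median of 3. Both genes serving the 2 compartments had sites, 84 in GARS1 and 9 in KARS1. The cytosolic genes together held 861 sites, 80.1% of the 1075, and the mitochondrial genes 121, 11.3%. The ranges overlapped: 11 of the 17 cytosolic genes had more sites than RARS2, the highest mitochondrial gene, and 7 of the 16 mitochondrial genes had more than FARSA, the lowest cytosolic gene.

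The same order was seen per kb of gene span. Cytosolic genes had a median of 1.23 sites per kb, from 0.258 to 2.19, and mitochondrial genes a median of 0.0515, from 0 to 1.27. Their median spans were 32.8 kb and 28.4 kb, so the classes were of similar length at the median, although the longest mitochondrial gene, FARS2, spans 522 kb. At least 1 site per kb was reached by 11 cytosolic genes, by GARS1 and by 2 mitochondrial genes, HARS2 and AARS2, against 4.55% of all protein-coding genes.

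**Figure D1:**
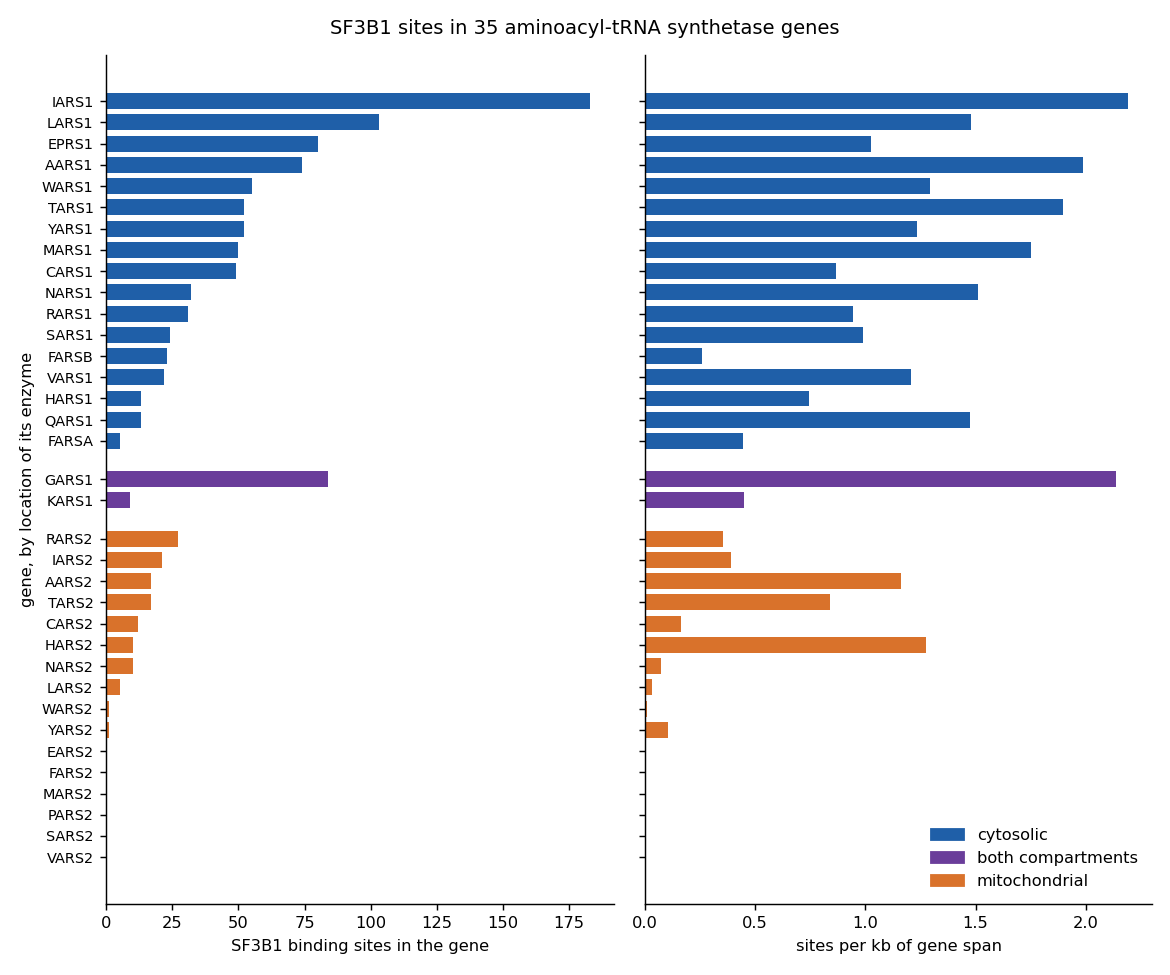
Bars give the number of SF3B1 sites (left) and the sites per kb of gene span (right) in each of the 35 genes, grouped by the location of the enzyme; values are single counts from 1 merged list, without error bars. IARS1 reached 183 sites, the cytosolic genes all lay above 0, and 6 mitochondrial genes had 0.

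Set beside all protein-coding genes, the synthetase genes were often on the list. At least 1 site was present in 29 of 35, against 38.0% of the 20050 protein-coding genes. At least 10 sites were present in 24 of 35, against 14.8%, and at least 50 in 9 of 35, against 1.35%. Among genes of 10 to 100 kb, which narrows the difference in length, 23 of 26 synthetase genes had a site, against 46.1% of 10987 genes, and 21 of 26 had at least 10, against 18.7%. Leaving out genes without a site, the median was 23 sites in synthetase genes and 7 in all protein-coding genes. The background includes genes that are silent in K562, and the list gives no means of leaving them out.

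The mitochondrial class lay nearer to this background than the cytosolic class did: 10 of 16 had a site and 7 of 16 had at least 10. In the 10 mitochondrial genes on the list the medians were 11 sites and 0.261 sites per kb, beside 7 and 0.199 in all protein-coding genes with a site. The cytosolic medians were 49 and 1.23.

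**Figure D2:**
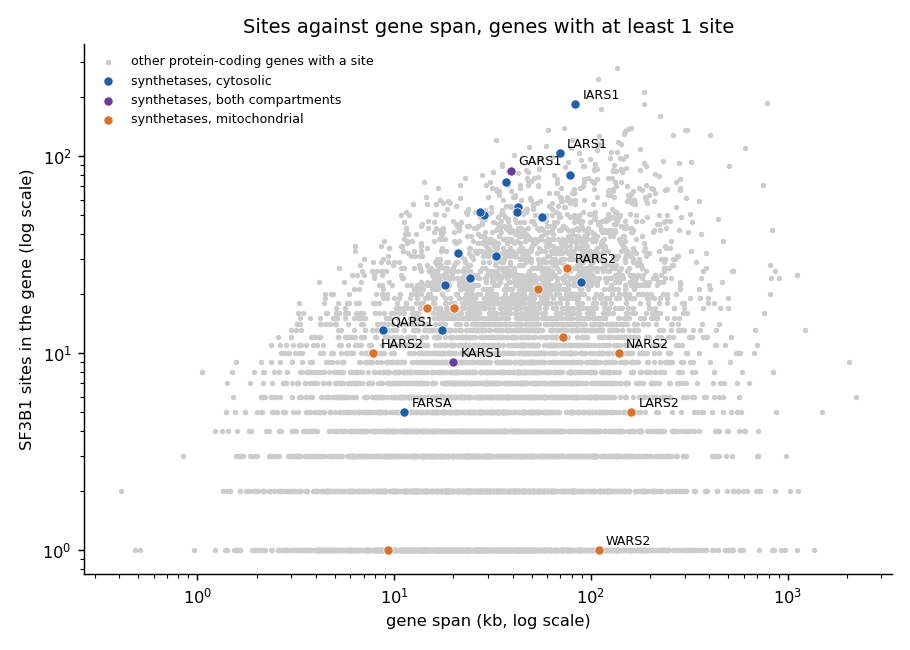
Each point is a protein-coding gene with at least 1 site, placed by its span and its number of SF3B1 sites on log axes; coloured points are synthetase genes and grey points all others. IARS1 lies high for its span with 183 sites over 83.5 kb, FARSB has 23 over 89.2 kb, and WARS2 lies at the lower edge with 1 site over 109 kb.

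IARS1 charges transfer RNA with isoleucine and belongs to the multisynthetase complex. It had 183 sites over 83.5 kb on the minus strand of chromosome 9, which placed it at rank 6 among protein-coding genes, and 2.19 sites per kb. Joining neighbours up to 60 nt apart grouped them into 97 clusters, the largest of 7 sites. Its sites lay towards the 5′ part of the gene, with 129 in the first 50% of the span and 54 in the rest. The first site was 284 nt from the annotated start. The densest 5 kb held 53 sites, between positions 92249879 and 92254722. A stretch of 12.0 kb near the 3′ end had 0 sites. SNORA84 and MIR3651, small RNA genes that share a place inside IARS1, contained 0 sites.

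LARS1, the leucine enzyme gene, was next with 103 sites over 69.6 kb, 1.48 per kb, on chromosome 5. LARS1 senses leucine for the mTORC1 growth pathway besides charging transfer RNA. Its first 10.6 kb had 0 sites, and the densest 5 kb held 35 sites between positions 146140290 and 146144962. GARS1, which serves both compartments, had 84 sites over 39.3 kb on chromosome 7, 2.14 per kb, close to the density of IARS1. They were spread along the gene, and its longest stretch without a site was 4.42 kb. KARS1, the other gene that serves both compartments, had 9 sites over 19.9 kb, 0.451 per kb.

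EPRS1 encodes a fused enzyme for glutamate and proline in the cytosol. It had 80 sites over 77.9 kb on chromosome 1, 1.03 per kb, with 44 clusters. AARS1, the alanine enzyme gene on chromosome 16, had 74 sites over 37.2 kb, 1.99 per kb, of which 27 fell in the last 10% of the span and 0 in the first 10%. WARS1, the tryptophan enzyme gene, had 55 sites over 42.5 kb on chromosome 14. TARS1 for threonine and YARS1 for tyrosine had 52 sites each, over 27.4 kb and 42.1 kb.

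These genes differed in where the sites were. In WARS1 the densest stretch held 21 sites between positions 100353562 and 100354799, 38.2% of its total. YARS1 had 45 of 52 sites in the second 50% of the span and TARS1 also had 45 of 52. MARS1 had 50 sites over 28.6 kb in separate groups, with 18 in the first 10% of the gene, 17 in the last 10%, and a stretch of 7.55 kb without a site after the first group.

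The other cytosolic genes ranged from 49 sites to 5. CARS1 for cysteine had 49 sites and NARS1 for asparagine had 32, at 0.867 and 1.51 per kb. RARS1 for arginine had 31, SARS1 for serine 24, FARSB 23 and VARS1 for valine 22. HARS1 for histidine and QARS1 for glutamine had 13 each. FARSA, with 5, encodes the partner of FARSB in the phenylalanine enzyme. The 2 subunit genes of that enzyme thus had the lowest numbers per kb of the cytosolic class, 0.258 in FARSB and 0.445 in FARSA.

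QARS1 shows how the span enters these values. With 13 sites over only 8.83 kb it reached 1.47 sites per kb, about that of LARS1. The 7 genes of the multisynthetase complex in this list, EPRS1, IARS1, LARS1, MARS1, QARS1, RARS1 and KARS1, had a median of 50 sites, and the 12 cytosolic or dual genes outside it a median of 40.5. Ranges were 9 to 183 and 5 to 84, and both groups had sites in every gene.

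Among mitochondrial enzymes, RARS2 for arginine had the most sites, 27 over 76.1 kb on chromosome 6. The final 10% of the span held 16 of these, and the first 20.5 kb held 0. IARS2 for isoleucine had 21 sites over 53.9 kb, and AARS2 for alanine and TARS2 for threonine had 17 each over 14.6 kb and 20.2 kb. CARS2 for cysteine had 12 sites over 72.1 kb. These 5 genes ranged from 0.166 sites per kb in CARS2 to 1.16 in AARS2.

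NARS2 for asparagine had 10 sites over 139 kb, 5 of them in the first 10% and 3 in the last 10%, with 100.2 kb between without a site. LARS2 for leucine had 5 sites over 161 kb. WARS2 and YARS2, for tryptophan and tyrosine, had 1 site each, 110 nt and 825 nt before the annotated end of the gene. WARS2 spans 109 kb and YARS2 9.35 kb.

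The 6 mitochondrial genes with 0 sites were EARS2 for glutamate, FARS2 for phenylalanine, MARS2 for methionine, PARS2 for proline, SARS2 for serine and VARS2 for valine. They spanned from 3.03 kb in MARS2 to 522 kb in FARS2, so the group included both the shortest and the longest gene of the list. MARS2 has no intron to be removed. Absence from the list has 2 readings that cannot be told apart here, no contact or too little RNA to give a reproducible site.

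Pairs were formed for 15 amino acids with a cytosolic and a mitochondrial gene in the list, with FARSA and FARSB summed. EPRS1 was paired for glutamate only, with EARS2. Proline, the other amino acid of EPRS1, was therefore not among the 15, although its mitochondrial gene PARS2 was in the list. For proline the counts were 80 sites in EPRS1 and 0 in PARS2. The cytosolic gene had more sites for all 15, and more per kb for 14. The exception per kb was histidine. Counting 1 site per region number, a running number that some neighbouring sites share, left 14 of 15, since RARS1 and RARS2 then had 26 each.

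The size of the difference varied. Isoleucine had 183 and 21 sites in IARS1 and IARS2, a ratio of 8.71, and leucine had 103 and 5 in LARS1 and LARS2. Tryptophan and tyrosine had 55 and 52 sites in the cytosolic gene and 1 in the mitochondrial gene. Glutamate, methionine, phenylalanine, serine and valine had 80, 50, 28, 24 and 22 sites in the cytosolic genes and 0 in the mitochondrial gene. The smallest differences were 31 against 27 sites for arginine and 13 against 10 for histidine. The mitochondrial gene was the longer one for 6 of the 15 amino acids, among them leucine, tryptophan, asparagine and arginine.

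**Figure D3:**
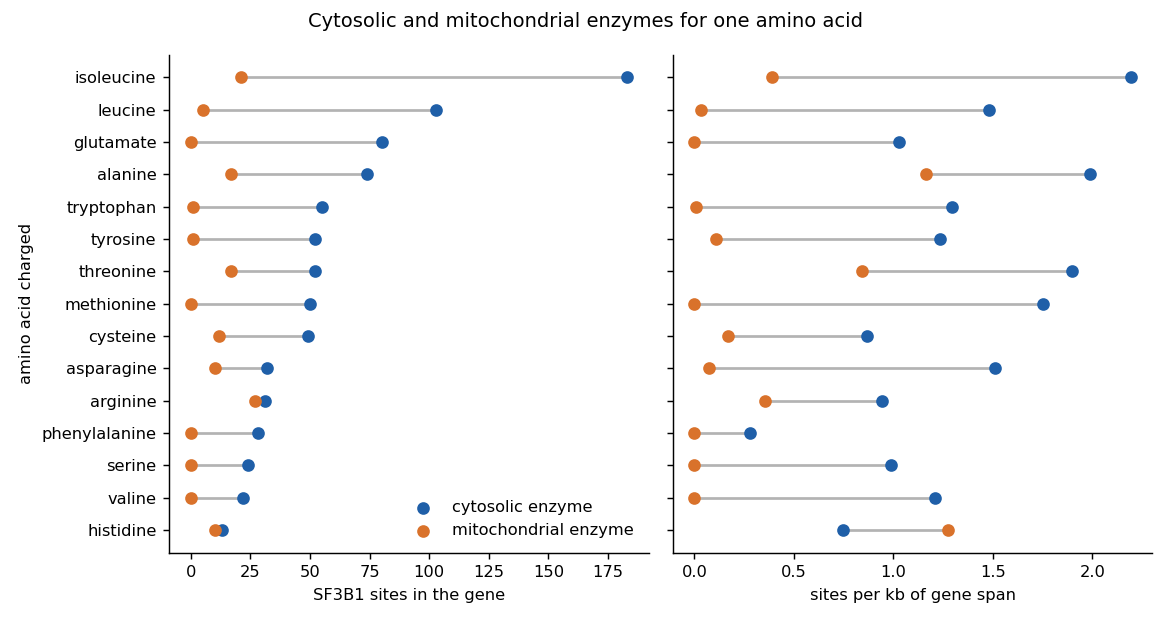
Each row is an amino acid, with points for the number of SF3B1 sites (left) and the sites per kb of gene span (right) in its cytosolic and mitochondrial gene, joined by a line; FARSA and FARSB are summed for phenylalanine. The cytosolic point lies to the right for all 15 amino acids on the left and for 14 on the right, where histidine is the exception. EPRS1 stands under glutamate only, so proline has no row.

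HARS1 and HARS2, the cytosolic and mitochondrial histidine enzyme genes, start 85 nt apart on chromosome 5 and run in opposite directions. HARS1 on the minus strand had 13 sites and HARS2 on the plus strand had 10, each on its own strand. Per kb of span HARS2 was higher, with 1.27 against 0.744. In both genes the 5′ part was empty: the first site lay 11.5 kb from the start of HARS1, or 65.6% of its span, and 3.13 kb from the start of HARS2, or 39.8%. Within the stretch from first to last site, 4.77 kb in HARS1 and 3.87 kb in HARS2, the values were 2.73 and 2.58 sites per kb, so the order turned.

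**Figure D4:**
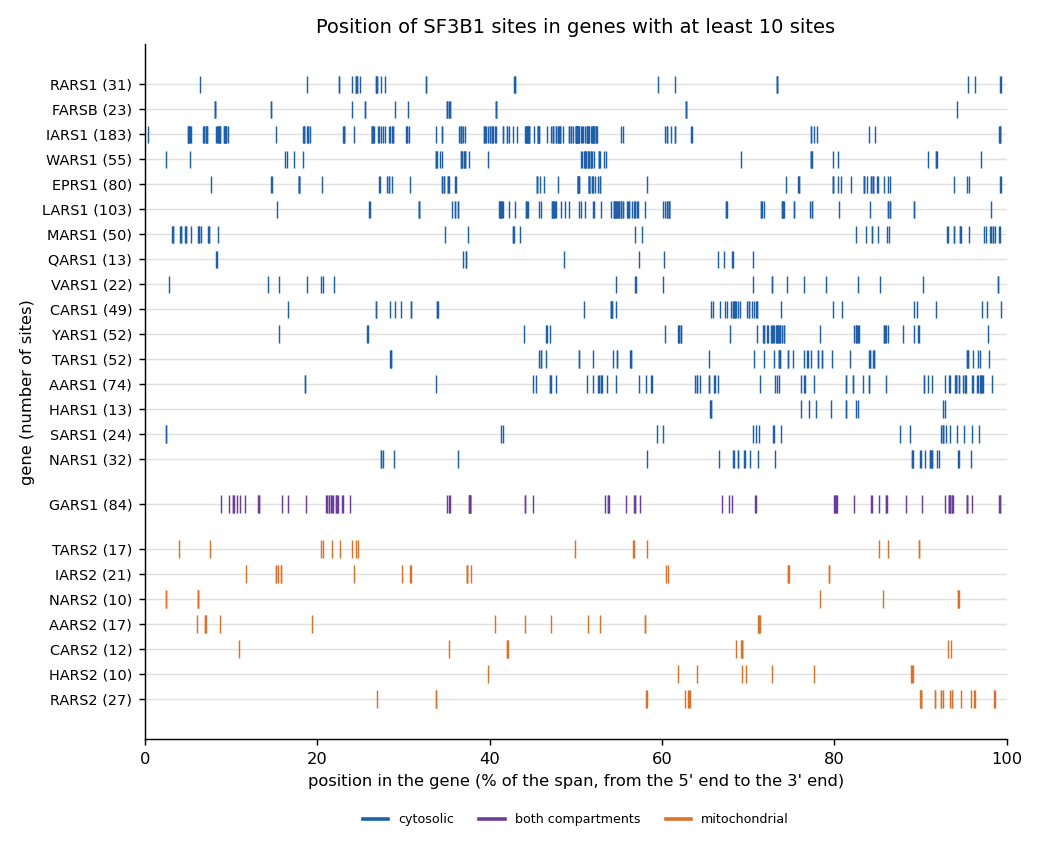
Each tick is an SF3B1 site, placed by its distance from the 5′ end as a share of the gene span, in the 24 genes with at least 10 sites; rows are grouped by location of the enzyme and ordered by median position. IARS1 has 129 of its 183 sites in the first 50% of the gene, HARS1 has all 13 after 65.6%, and MARS1 has groups at both ends.

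The position of the sites differed between genes. In 21 of the 29 genes with a site, more lay in the second 50% of the span than in the first, against 62.7% of all protein-coding genes with a site, and in 7 fewer did. NARS2 was equal, with 5 and 5. Of all 1075 sites, 13.7% were in the final 10% of the span (95% Wilson interval 11.7% to 15.9%), close to the 13.5% of all protein-coding genes. IARS1 contributed 4 such sites of its 183, and without it the share was 16.0%. In the first 10% the share was 7.16% (5.77% to 8.86%), and without IARS1, which had 30 sites there, it was 5.27%, beside 4.63% in all protein-coding genes. These intervals cover counting error only, and sites of one gene are not independent.

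Of the 24 genes with at least 10 sites, 15 had more sites in the last 10% than in the first, against 57.3% of 2965 protein-coding genes chosen by the same minimum, so the share was near the background. The 7 with more in the first 10% were IARS1, MARS1, FARSB, QARS1, AARS2, NARS2 and TARS2.

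Pairs of sites 25 to 45 nt apart occurred in 26 of the 35 genes, against 22.8% of protein-coding genes. All 17 cytosolic genes and both dual genes had such a pair, and 7 of the 16 mitochondrial genes did. LARS2, WARS2 and YARS2 had sites but no such pair. There were 271 pairs, of which IARS1 had 55, GARS1 28, LARS1 28 and EPRS1 26. Of the 1075 sites, 39.2% belonged to a pair (95% Wilson interval 36.3% to 42.1%), beside 36.5% over all protein-coding genes. The share was 39.6% in cytosolic genes (36.4% to 42.9%) and 26.4% in mitochondrial genes (19.4% to 34.9%), and a denser gene also offers more neighbours to pair with.

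Single genes ranged widely in this share. FARSB had 13 of its 23 sites in pairs, or 56.5%, GARS1 44 of 84, or 52.4%, and RARS1 16 of 31, or 51.6%. SARS1 had 2 of 24 and VARS1 2 of 22, or 8.33% and 9.09%. SARS1 and VARS1 had mostly lone sites, with 14 of 18 clusters in each made of a single site.

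The distance at which most pairs fell, summing 3 adjacent distances between 20 and 60 nt, was 33 nt in the synthetase genes and 37 nt in other protein-coding genes. This distance varied within the list: it was 37 nt in the cytosolic genes, 39 nt in the mitochondrial genes and 31 nt in IARS1 alone. Pairs 25 to 45 nt apart outnumbered those 46 to 66 nt apart by 271 to 108, a ratio of 2.51, beside 3.61 in other protein-coding genes. Pairs 140 to 180 nt apart outnumbered those 60 to 100 nt apart by 286 to 133, a ratio of 2.15, beside 1.71. Without IARS1 the 2 ratios of the synthetase genes were 2.57 and 2.33. By class they were 2.35 and 2.22 in cytosolic genes and 3.60 and 1.125 in mitochondrial genes. The mitochondrial ratios rest on few pairs, 18 to 5 and 9 to 8. Joined over steps of up to 60 nt, the sites made 637 clusters holding 1.69 sites on average, beside 1.57 in all protein-coding genes.

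**Figure D5:**
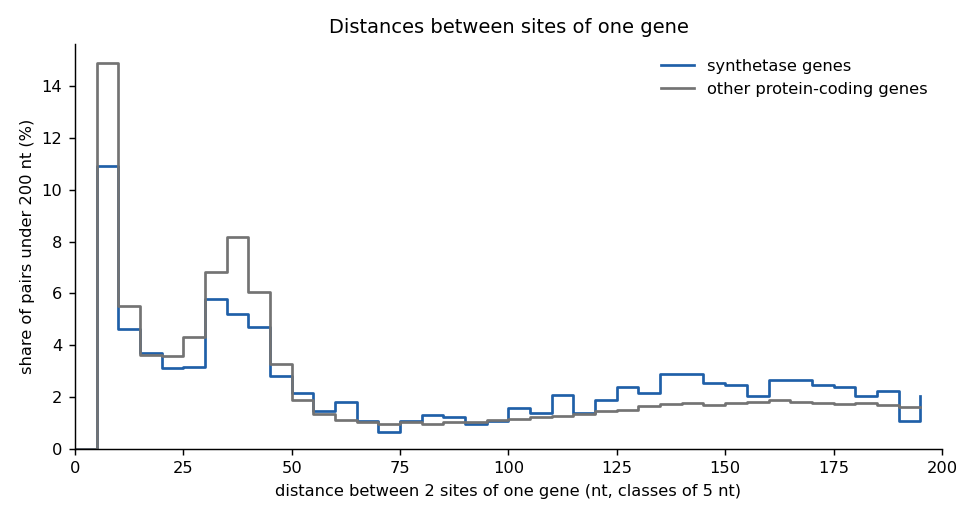
Lines give the share of site pairs of one gene that fall in each 5 nt class of distance below 200 nt, for the synthetase genes and for all other protein-coding genes. Both have a peak at 5 to 9 nt, with 10.9% of the pairs of synthetase genes, a second peak between 30 and 44 nt, and a broad rise beyond 120 nt.

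All 1075 sites lay on 1 strand in each gene. The gene table gave the strand of 30 genes, and in these 0 sites lay on the other strand. For AARS2, LARS1, VARS1 and YARS1 the strand was that of their sites. Several synthetase genes overlap a protein-coding gene on the other strand, and no site was shared: S100PBP, which overlaps YARS1, had 14 sites, all on the plus strand and outside YARS1, and DDIT3, which overlaps the end of MARS1, had 8, all on the minus strand and outside MARS1.

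Other genes of transfer RNA charging had few sites. In a list of 13 partners, 8 had at least 1 site, beside 38.0% of protein-coding genes, and 0 had at least 10. AIMP1, AIMP2 and EEF1E1, the scaffold proteins of the multisynthetase complex, had 5, 1 and 1 sites, while 6 of the 7 complex enzymes in the list had at least 10. Of the mitochondrial amidotransferase that makes glutaminyl-tRNA, QRSL1 had 9 sites, GATB 3 and GATC 0. MTFMT, which formylates the initiator methionyl-tRNA of mitochondria, had 3. SEPSECS and PSTK, which make selenocysteinyl-tRNA, had 4 and 0. TARS3, a second cytosolic threonine enzyme, had 1 site over 70.9 kb, and the editing factors AARSD1, DTD1 and DTD2 had 0.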

How the data were processed

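SF3B1 binding sites were mapped by iCLIP in K562 cells, and 1 merged list for the 3 unmutated SF3B1 libraries was used. Per the file headers, the deposited sites of 5 nt were merged and kept where every replicate of one condition or the other showed them. The deposited score was 0 in every row and ranked nothing. The submitters' processing notes name FastQC 0.11.8, STAR 2.7.3a and 2.6.1b, UMI-tools 1.0.0, bedtools 2.27.1 and builds GRCh38.p10 and GRCh38.p12, with no roles; the site caller is not given in the sources used here. The demand for all replicates can drop sites in rare RNA, and merging sets a lower limit to the spacing.

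Centres were converted to 1-based positions and placed in RefSeq spans of GRCh38.p14; all 35 symbols matched. Strand came from the RefSeq promoter table, or from the sites where the table had none. The spans give no exons, and no genome sequence was used, so the planned distances to splice sites were not made; sequences came from RefSeq promoter and miRNA tables. A site in overlapping protein-coding genes counted in each. Genes were named by rule: every member, with the 8 cytosolic or dual and 5 mitochondrial genes with the most sites, HARS1, HARS2 and genes without a site in more detail. The members and lists were chosen with earlier results of these data known. Some genes of the marker list are not reported here. The motif CTNAC was added after the sequences were seen. Tests on samples were not possible, since replicates are merged and the depth is unknown. On simulated data, all positions in 6461 genes and all 200 planted pairs were recovered. The software was Matplotlib 3.10.9, SciPy 1.17.1, pandas 2.3.3, NumPy 2.4.6 and Python 3.11.15.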

Additional observations from a re-analysis of the deposited data

How the results depend on the processing

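Of 207 recalculations, 204 kept the direction and stayed within 1.5 times the value (counts and medians) or within the Wilson interval (shares). All 175 recounts of single genes were among them, under 1 site per region number, merging of touching sites, the 5′ end as position, either strand, and omission of sites in more than 1 protein-coding gene. The 5′ end, either strand and the omission left the count of every gene unchanged. Genes without a site stayed so in all settings, so many of these recounts say little about stability. The total of 1075 sites was 979 with 1 site per region number and 1034 with touching sites merged. The share of sites in the last 10% of the gene, 13.7%, was 16.0% without IARS1, which had 4 of its 183 sites there, and 23.3% for the last 20%, since a longer stretch was counted. HARS2 had 0.529 sites per kb more than HARS1 over the gene span and differed by -0.144 when the span ran from first to last site. The median difference of 46 sites between cytosolic and mitochondrial genes ranged from 37.5 without IARS1 to 46. Alternatives for the sites per kb of the 2 classes, the amino acid pairs and the histidine genes were chosen after seeing the data.

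Not run were distances to 3′ splice sites, which need exons, and leaving out each replicate. No paired analysis was possible because replicates are merged into 1 list. The depth is unknown, so absence of a site gives no bound on binding.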

Other observations

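EPRS1 and IARS2, on opposite strands of chromosome 1, lie 47.6 kb apart. EPRS1 had 80 sites on the minus strand, the last of them 533 nt before its annotated end, and IARS2 had 21 on the plus strand. EARS2, a mitochondrial gene with 0 sites, overlaps GGA2, which had 23 sites on the minus strand, none of them inside EARS2. CARS1-AS1, an antisense RNA gene over CARS1, contained 7 sites, all on the minus strand of CARS1, and LOC124901322 over AARS2 contained 7, all on the strand of the AARS2 sites.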
